A study of Mus musculus with 6 samples.

Results

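The mitochondrial matrix folds and clears its proteins with a small set of nuclear-encoded chaperones and proteases. When unfolded or unpaired proteins build up there, cells raise the transcription of these genes, a program known as the mitochondrial unfolded protein response (UPRmt). Its textbook markers are the chaperonin HSP60 with its partner HSP10, the mitochondrial HSP70 and the proteases LONP1 and CLPP, and in mammals the program is tied to the transcription factors ATF4, ATF5 and CHOP. The heart is rich in mitochondria, and MRPS5, the protein deleted here, belongs to the small subunit of the mitochondrial ribosome, which makes the mtDNA-encoded subunits of the respiratory chain.

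From this machinery, 10 genes were taken by gene name from the table of expression values of 6 mouse hearts: Hspd1, Hspe1, Hspa9, Trap1, Lonp1, Clpp, Clpx, Yme1l1, Afg3l2 and Htra2. Each of the 10 names matched 1 of the 54532 genes listed, and all 10 were among the 12944 genes tested, those with a mean of at least 0.5 FPKM. FPKM counts sequenced fragments per kilobase of gene, scaled by a size per library, so levels of different genes can be set side by side. The members were covered by 394 to 44027 reads per heart.

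The 3 Ctrl mice were Mrps5 fl/fl, with both Mrps5 alleles flanked by loxP sites, and the 3 cKO mice were Mrps5 fl/fl; MCM, with the αMHC-MerCreMer transgene in addition. All 6 mice received tamoxifen by intraperitoneal injection at 45 mg per kg per day for 5 days from 8 weeks of age, and the labels place the hearts 12 weeks later, whereas the methods give the mice's age at harvest as 12 weeks. The αMHC promoter limits Cre to cardiomyocytes, so every other cell of the heart keeps Mrps5. Because Ctrl mice carried no MerCreMer, effects of the recombinase and of the deletion cannot be told apart. The study lists the lines as aMHC-MCM and Mrps5 (flox/flox), and the methods give the tissue as ventricle from littermates.

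Mrps5 itself measured 5.20, 6.45 and 6.33 FPKM in Ctrl and 1.12, 1.23 and 1.31 FPKM in cKO, so that 20.4% of the Ctrl mean remained (limma adjusted p = 0.000202). The libraries held 15989322 to 24875499 reads assigned to genes. cKO replicate 2 stood apart in that Xist was at 10.7 FPKM and the mean of 4 Y-linked genes at 0. The other 5 hearts were at 0.127 FPKM or less and at 7.61 FPKM or more. This is the pattern of a female heart, while the study's reporting summary lists male mice. Reads of cKO replicate 2 also differed more from its group over genes at large. The mean chi-square per gene between hearts was 47.3 and 44.9 against cKO replicates 1 and 3. It was 18.1 between those and 14.3 to 18.3 within Ctrl. The tissue label held for its defining markers, since all 8 cardiomyocyte markers were expressed. Atrial markers also varied from heart to heart, their summed FPKM running from 128 to 2052 in Ctrl and from 575 to 1652 in cKO.

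Hspd1 and Hspe1 lie head to head, so that the bases around their start sites belong to the promoters of both. Hspd1 (chromosome 1, 55077835 to 55088243, minus strand) and Hspe1 (chromosome 1, 55088132 to 55091307, plus strand) shared 112 bases at their 5′ ends in the coordinates of the table, which match GRCm38. Before the RefSeq start site of Hspe1, inside the first exon of an annotated Hspd1 transcript, stood the letters of a heat shock element core (GAANNTTC), the motif known to be bound by heat shock factors. These 30 bases are shown because the same letters lie in windows of both chaperonin genes, with the motif in capitals (RefSeq, GRCm38.p6, chr1:55088054-55088083, plus strand).
Hspe1: gtccgttctaGAACCTTCcggaaggccccg

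The next stretches are the 250 bases before the start sites of Lonp1, the member with the largest rise, and of Clpx, the member with the lowest cKO level relative to Ctrl. Capitals mark an E-box (CACGTG) in Lonp1 (chr17:56626904-56627153, minus strand) and the core of an NRF1 site (GCGCATGC, read here on the opposite strand) in Clpx (chr9:65294010-65294259, plus strand).
Lonp1: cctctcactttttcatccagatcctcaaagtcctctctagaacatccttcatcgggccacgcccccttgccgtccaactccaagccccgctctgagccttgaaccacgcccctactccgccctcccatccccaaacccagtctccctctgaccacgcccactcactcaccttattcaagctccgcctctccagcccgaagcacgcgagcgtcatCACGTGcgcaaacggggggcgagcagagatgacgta
Clpx: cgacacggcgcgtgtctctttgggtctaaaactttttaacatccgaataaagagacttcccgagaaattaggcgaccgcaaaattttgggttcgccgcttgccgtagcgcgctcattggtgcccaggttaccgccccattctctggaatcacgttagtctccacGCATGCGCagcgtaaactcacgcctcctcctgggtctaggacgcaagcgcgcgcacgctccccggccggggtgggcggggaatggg

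Promoter windows, 250 bases before to 50 bases after a start site, were matched for 7 of the 10 members. The heat shock element core was found in windows of Hspd1 and Hspe1, where it is the same stretch of DNA, and in 7.86% of all 32851 mouse windows. The E-box was found in windows of Hspd1 and Lonp1, 80 and 36 bases before their start sites, and in 7.15% of all windows. The NRF1 core was found for Clpx, 86 bases before its start site, and in 2.71% of all windows. The last motif, the core of the C/EBP-ATF response element that ATF4 and its partners are known to bind (TGATGNAA), was in none of the 7 members' windows and in 3.97% of all windows. All motifs were searched on both strands, and a match describes the letters in these windows and not binding.

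Across the 10 genes, transcripts of 6 were higher in cKO hearts and none was lower at a limma adjusted p under 0.05. Lonp1 rose most, to 3.68 times the Ctrl mean, Hspd1, Hspe1 and Hspa9 came close to doubling, and Htra2 and Afg3l2 rose by smaller amounts. Trap1, Clpp, Clpx and Yme1l1 did not pass the test. The share of higher genes was 60.0% among the members and 16.3% among all 12944 genes tested, of which 17.0% were lower. The median log2 fold change was 0.63 over the members and -0.016 over all genes tested. In bulk tissue a change in the number of cells of a type and a change in RNA per cell cannot be told apart.

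The separation of the groups followed the same split. For 6 of the 10 members every cKO heart was above every Ctrl heart, as for 24.8% of all genes tested. For Clpx alone among the members every cKO heart was below every Ctrl heart, as for 26.4% of all genes tested. Only Lonp1 both passed the test and at least doubled, a combination met by 3.92% of all genes tested. The count of 6 higher and 0 lower members was reached in each of the 14 alternative fits, including the fits without cKO replicate 2 and without any other single heart.

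**Figure D1:**
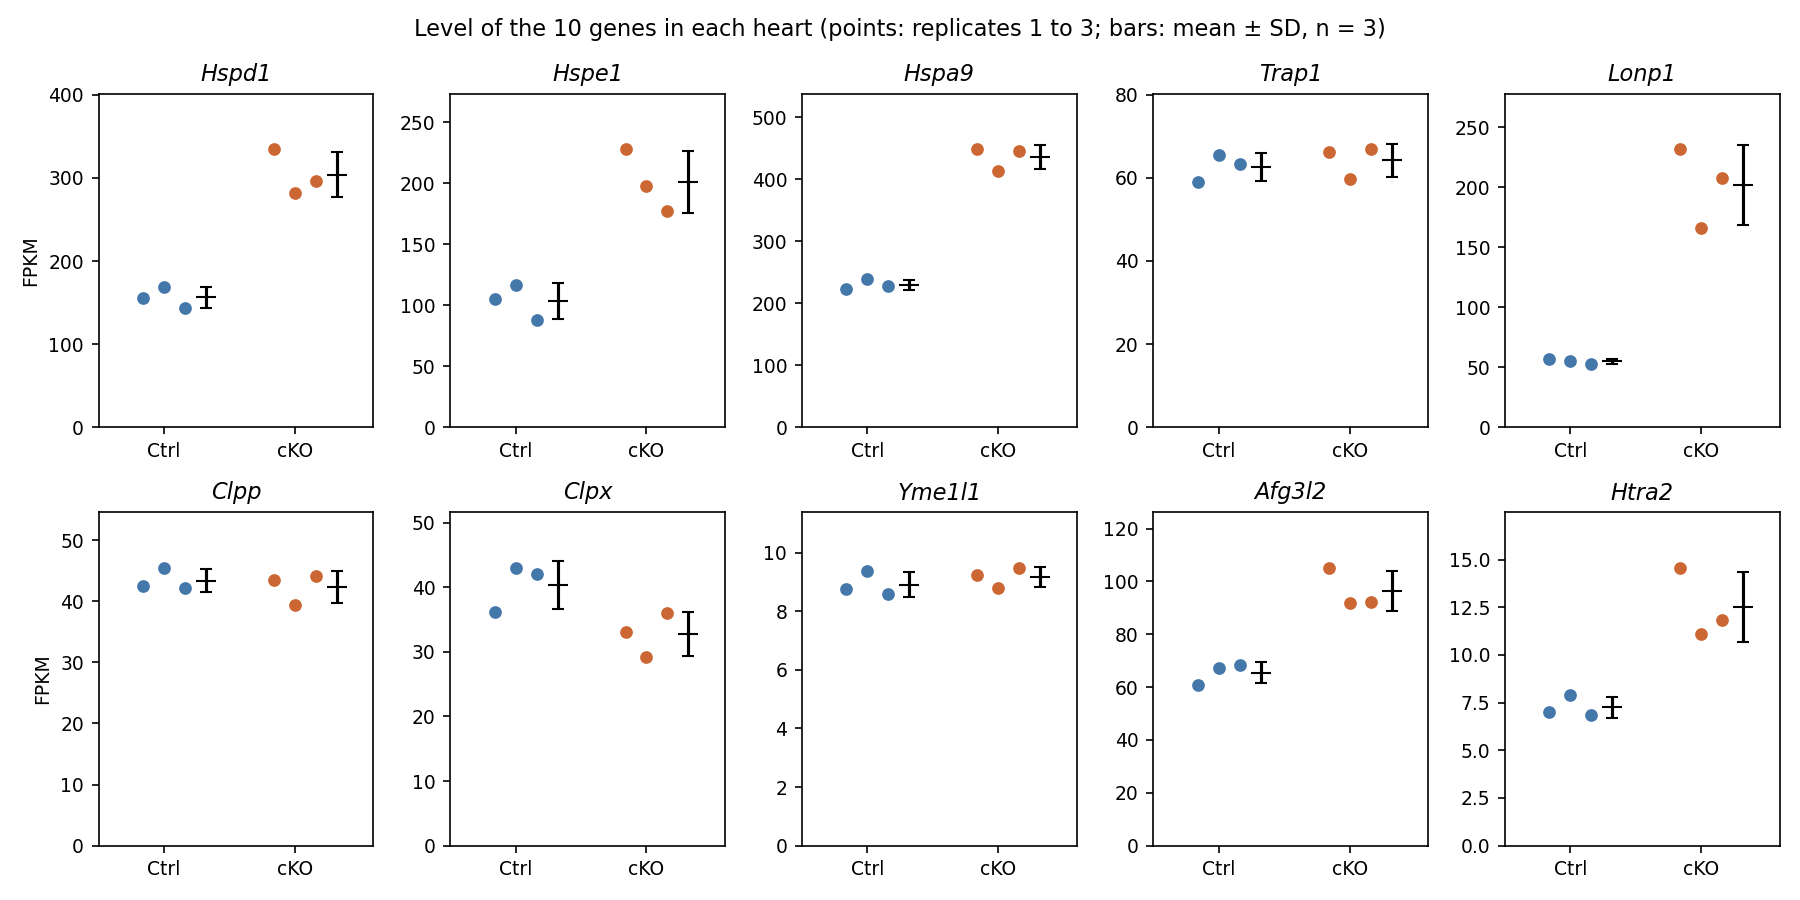
Level in FPKM (vertical axes, linear, each starting at 0) of the 10 genes in the 3 Ctrl (blue) and 3 cKO (orange) hearts, 1 point per heart with the mean ± SD in black. Hspd1, Hspe1, Hspa9, Lonp1, Afg3l2 and Htra2 have all cKO points above all Ctrl points, while the points of Trap1, Clpp and Yme1l1 overlap.

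Of the chaperones and proteases, Hspa9 and Hspd1 were the most abundant in both groups. Hspa9, the mitochondrial HSP70 that pulls imported proteins into the matrix and folds them, was at 223, 239 and 229 FPKM in Ctrl hearts and at 449, 414 and 445 FPKM in cKO hearts. The cKO hearts lay close together and far above Ctrl. The means were 230.1 ± 8.04 and 435.9 ± 19.4 FPKM (SD, n = 3 each), a log2 fold change of 0.92 (SE 0.0755, limma adjusted p = 0.000802). Hspa9 lies on chromosome 18 and hosts a pair of small nucleolar RNAs, listed at no more than 1.72 FPKM in either group mean.

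Hspd1 encodes HSP60, which forms the barrel of the chaperonin. It was at 156, 169 and 144 FPKM in Ctrl hearts and at 335, 282 and 296 FPKM in cKO hearts. The lowest cKO heart, replicate 2, was still well above the highest Ctrl heart. The log2 fold change came to 0.95 (SE 0.0998, limma adjusted p = 0.00148), 1.95 times the Ctrl mean. A processed pseudogene, Hspd1-ps3, was at 8.76 FPKM in Ctrl and 11.0 FPKM in cKO on average, so a small part of the reads may be shared with a near-identical copy.

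Hspe1 encodes HSP10, the lid that closes the HSP60 barrel. Its level was 105, 117 and 87.6 FPKM in Ctrl hearts and 228, 198 and 177 FPKM in cKO hearts. The groups did not overlap, although the hearts of each group spread more widely than for Hspa9. The log2 fold change came to 0.96 (SE 0.137, limma adjusted p = 0.00336), again 1.95 times the Ctrl mean. Within each heart Hspd1 was at 1.42 to 1.67 times the level of Hspe1, and this ratio averaged 1.52 in both groups. The difference in the log2 ratio of Hspd1 to Hspe1 between cKO and Ctrl was -0.0054 (SE 0.0895, exact permutation p = 0.9).

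Trap1, the mitochondrial member of the HSP90 family, differed from the other chaperones. It was at 59.0, 65.6 and 63.4 FPKM in Ctrl hearts and at 66.1, 59.6 and 66.9 FPKM in cKO hearts, with overlapping groups. The log2 fold change came to 0.034 with a 95% interval from -0.16 to 0.23 (limma adjusted p = 0.773), which leaves room for a level between 0.897 and 1.17 times that of Ctrl. Its interval ended below those of Hspa9, Hspd1 and Hspe1, the lowest of which began at 0.63.

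Among the soluble proteases of the matrix, Lonp1 encodes the LON protease, an ATP-driven enzyme that removes damaged and unassembled proteins. Lonp1 (chromosome 17, 56614297 to 56626887, minus strand) was at 56.7, 55.2 and 52.8 FPKM in Ctrl hearts and at 232, 166 and 208 FPKM in cKO hearts. Ctrl hearts differed by less than 4 FPKM, and the lowest cKO heart was again replicate 2. The log2 fold change came to 1.85 (SE 0.126, limma adjusted p = 0.000415), the 64th largest of all genes tested. In Ctrl hearts Lonp1 was the sixth most abundant of the 10 genes, and in cKO hearts it stood directly below Hspd1, level with Hspe1, whose range it overlapped.

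CLPXP is the other matrix protease, built from the peptidase CLPP and the unfoldase CLPX that feeds it. Clpp (chromosome 17, 56990305 to 56996188, plus strand) was at 42.4, 45.5 and 42.1 FPKM in Ctrl hearts and at 43.4, 39.4 and 44.1 FPKM in cKO hearts. The groups overlapped, and the log2 fold change was -0.035 (95% interval -0.22 to 0.15, limma adjusted p = 0.755), with a sign that turned under scaling without mtDNA-encoded genes. Clpx (chromosome 9, 65294260 to 65330658, plus strand) was at 36.1, 43.0 and 42.0 FPKM in Ctrl hearts and at 33.1, 29.1 and 36.0 FPKM in cKO hearts. The groups were parted by less than 0.1 FPKM, and the log2 fold change of -0.29 (SE 0.107) missed the threshold with a limma adjusted p of 0.0738. The groups of Clpx overlapped under both other scalings of the libraries.

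Of the proteases bound to the inner membrane, AFG3L2 is the AAA protease that faces the matrix and YME1L1 the one that faces the intermembrane space. Afg3l2, on chromosome 18, was at 61.0, 67.4 and 68.2 FPKM in Ctrl hearts and at 105, 91.9 and 92.4 FPKM in cKO hearts. All cKO hearts were above all Ctrl hearts, a log2 fold change of 0.55 (SE 0.0874, limma adjusted p = 0.00480). Yme1l1 (chromosome 2, 23156369 to 23199260, plus strand) was at 8.75, 9.39 and 8.58 FPKM in Ctrl hearts and at 9.23, 8.80 and 9.49 FPKM in cKO hearts. Its groups overlapped, and the log2 fold change was 0.039 (95% interval -0.13 to 0.20, limma adjusted p = 0.703).

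Htra2 encodes a serine protease of the intermembrane space. It was the least abundant member in Ctrl hearts, at 7.01, 7.90 and 6.83 FPKM, and was at 14.6, 11.1 and 11.8 FPKM in cKO hearts. The groups did not overlap, and in cKO hearts Htra2 was above Yme1l1, the reverse of the order in Ctrl. The log2 fold change came to 0.70 (SE 0.112, limma adjusted p = 0.00490), 1.72 times the Ctrl mean. Htra2 (chromosome 6, 83051266 to 83055273, minus strand) shares 753 bases with Aup1 and 1297 bases with Loxl3 on the opposite strand, counted over whole genes with introns. Whether counting used the strand is not given in the sources used here, so reads of these genes may be mixed. Aup1 averaged 10.7 FPKM in Ctrl and 13.7 FPKM in cKO, and Loxl3 averaged 1.22 and 2.07 FPKM.

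**Figure D2:**
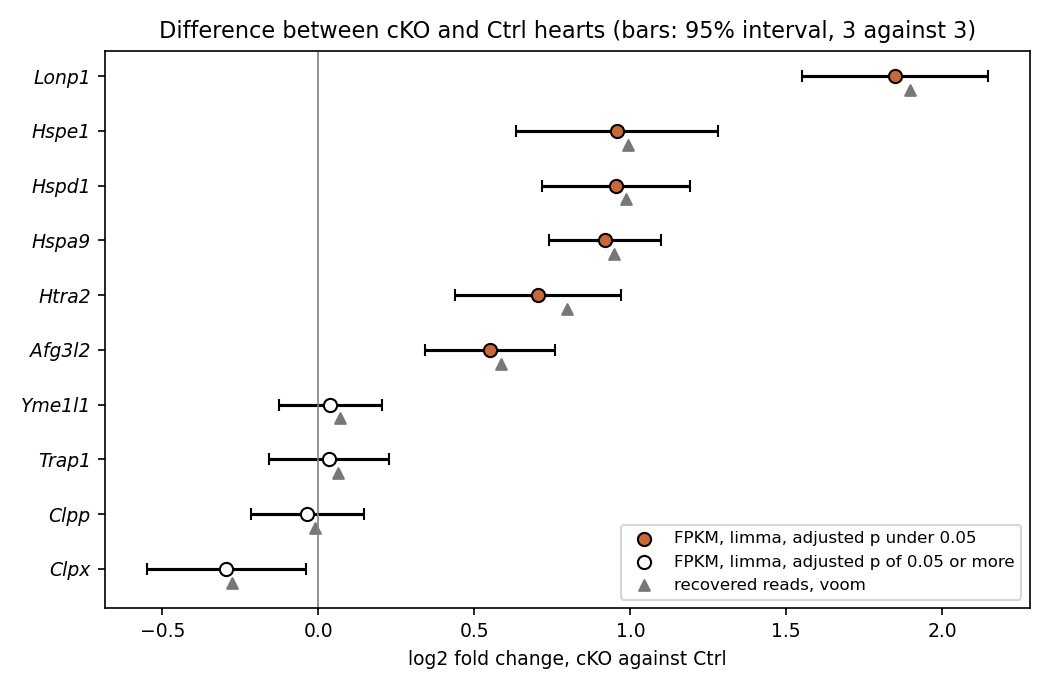
Log2 fold change of cKO against Ctrl (horizontal axis) for the 10 genes, as circles with 95% intervals from limma on FPKM and as triangles from voom on recovered reads. The intervals of the 6 filled circles, from Lonp1 at 1.85 to Afg3l2 at 0.55, lie right of 0, and the 4 open circles (Yme1l1, Trap1, Clpp and Clpx) did not pass the adjusted threshold.

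Ratios between genes within a heart do not depend on how the libraries were scaled, and 11 were compared by exact permutation over hearts, for which 3 against 3 cannot give a p below 0.1. In 9 of the 11 the groups were apart, all with exact permutation p = 0.1 (0.122 after adjustment over the 11). For single genes, every cKO heart was above every Ctrl heart in 24.8% of all genes tested and below in 26.4%. The share over all gene pairs was not computed. Ratios between a member called higher and a gene that was not repeat that rise and are no separate result. The largest differences were those between the matrix proteases. Lonp1 was at 1.34, 1.21 and 1.25 times the level of Clpp in Ctrl hearts and at 5.34, 4.22 and 4.71 times in cKO hearts. Against Clpx it was at a mean of 1.37 ± 0.174 times in Ctrl and 6.16 ± 0.729 times in cKO (SD, n = 3 each). Within CLPXP the level of Clpx relative to Clpp was 0.931 ± 0.0741 in Ctrl and 0.773 ± 0.0391 in cKO.

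The membrane proteases were compared in the same way. AFG3L2 can build its ring alone or together with paraplegin, the product of Spg7, and other possible subunits were not compared. Afg3l2 was at 2.16, 2.27 and 2.53 times the level of Spg7 in Ctrl hearts and at 4.91, 4.66 and 4.07 times in cKO hearts. Yme1l1 relative to Afg3l2 was at 0.136 ± 0.00925 in Ctrl and 0.0954 ± 0.00753 in cKO. For HSP70, the ratio of Hspa9 to Grpel1, the exchange factor that resets it, was 6.57, 5.88 and 6.28 in Ctrl hearts and 10.5, 10.8 and 10.8 in cKO hearts.

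Mitochondrial chaperones were also set against their relatives elsewhere in the cell. Hspa9 was at 2.03 ± 0.326 times the level of Hspa5, the HSP70 of the endoplasmic reticulum, in Ctrl and at 4.10 ± 0.251 times in cKO. Relative to Hspa8, the constitutive cytosolic HSP70, it was at 0.783 ± 0.0721 times in Ctrl and 1.04 ± 0.136 times in cKO. Trap1 was at 0.102 ± 0.0110 times the level of Hsp90ab1, the cytosolic HSP90, in Ctrl and at 0.0858 ± 0.00458 times in cKO. Relative to Hsp90b1, the HSP90 of the endoplasmic reticulum, Trap1 was at 1.05 ± 0.0810 and 1.25 ± 0.131 times, with overlapping groups (exact permutation p = 0.2, adjusted 0.22).

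**Figure D3:**
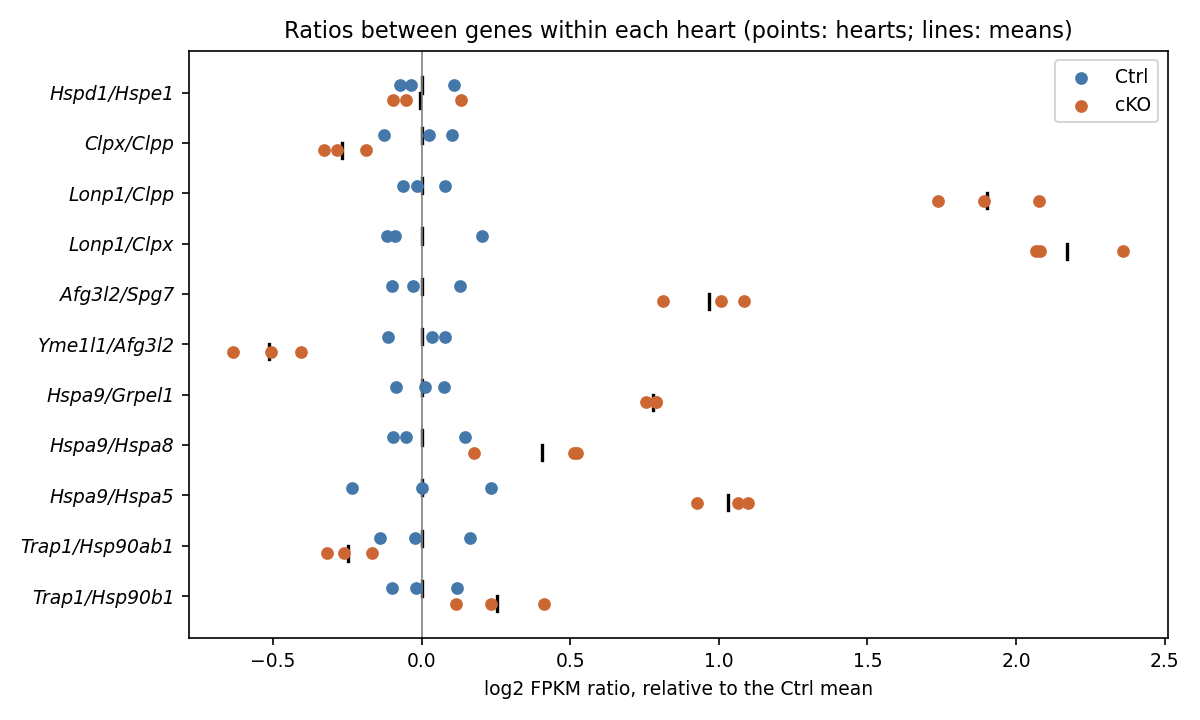
Log2 ratio of FPKM between 2 genes in the same heart, relative to the Ctrl mean of that ratio (horizontal axis), for 11 pairs, with 1 point per heart (Ctrl blue, cKO orange) and short black lines at the means. The Lonp1 to Clpx and Lonp1 to Clpp points of cKO lie about 2 log2 units above Ctrl, whereas the Hspd1 to Hspe1 points of the groups overlap around 0.

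The co-chaperones did not move together. Of 9 genes that serve HSP70, its J-proteins or the disaggregase, 3 were higher and 1 lower in cKO hearts, beside the 16.3% and 17.0% of all genes tested. Their median log2 fold change of 0.14 went to 0.081 without Ctrl replicate 1, to 0.084 without cKO replicate 1 and to 0.21 without Ctrl replicate 2, and scaling without mtDNA-encoded genes gave 0.23. Grpel2, a paralogue of the HSP70 exchange factor, was at 5.79, 6.72 and 6.03 FPKM in Ctrl and 9.29, 13.6 and 9.50 FPKM in cKO hearts (log2 fold change 0.70, limma adjusted p = 0.0116). Dnaja3, a J-protein of the matrix, went from 43.7 ± 4.40 to 61.6 ± 2.17 FPKM (log2 fold change 0.49, limma adjusted p = 0.00739). Clpb, a disaggregase of the intermembrane space, went from 10.5 ± 0.452 to 15.6 ± 1.37 FPKM (log2 fold change 0.53, limma adjusted p = 0.00476). Dnajc19, a J-protein of the import motor, was lower, at 12.2 ± 1.18 FPKM in Ctrl and 8.44 ± 0.420 FPKM in cKO (log2 fold change -0.48, limma adjusted p = 0.00759). Grpel1, the main exchange factor, did not pass the test, at 33.9, 40.6 and 36.4 against 42.6, 38.4 and 41.3 FPKM. Dnaja3 and Dnajc19 overlap other genes over long stretches, counted over whole genes with introns. Reads may be mixed where exons overlap, which was not examined.

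Other mitochondrial proteases were examined next. Of 15 tested, 1 was higher and 5 were lower, beside the 16.3% and 17.0% of all genes, with a median log2 fold change of -0.014 that turned positive under each of the other scalings and under voom (0.012 to 0.069). The lower genes were Immp1l, Mipep, Spg7, Lactb and Oma1, and the higher one was Nln, a peptidase. Spg7, which encodes a partner subunit of AFG3L2, was at 28.2, 29.7 and 26.9 FPKM in Ctrl hearts and at 21.4, 19.7 and 22.7 FPKM in cKO hearts (log2 fold change -0.39, limma adjusted p = 0.0109). Spg7 was lower in every alternative fit. Immp1l, a subunit of the inner membrane peptidase, had a log2 fold change of -0.56 (limma adjusted p = 0.0297), Mipep, which trims imported precursors, -0.42 (0.0175), and Nln 0.47 (0.0139). Oma1, the stress-activated protease that cuts OPA1 and DELE1, was at the edge of the threshold (log2 fold change -0.25, limma adjusted p = 0.0499) and lost its call in 12 of 14 alternative fits. Immp1l and Mipep each lost the call without Ctrl replicate 2 and without Ctrl replicate 3, Mipep also without cKO replicate 1, and Lactb without Ctrl replicate 1 or 2. The count of lower genes fell to 1 without Ctrl replicate 2, to 2 without Ctrl replicate 3 and to 3 without cKO replicate 1. Calls fell at large as well, from 2205 lower of all 12944 genes tested to 1434, 1450 and 1653 in these fits.

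Of 5 inner membrane scaffolds and partners of the membrane proteases, only Ghitm passed the test and was higher, beside 16.3% of all genes tested. None was lower, beside 17.0% of all genes tested. Ghitm, an inner membrane protein that binds AFG3L2, was at 176, 184 and 172 FPKM in Ctrl hearts and at 441, 386 and 447 FPKM in cKO hearts. The groups were far apart (log2 fold change 1.25, SE 0.0861, limma adjusted p = 0.000428), and the cKO mean was 2.39 times that of Ctrl, beside 1.47 times for Afg3l2. The prohibitins, whose rings surround these proteases, were at 111, 124 and 110 against 131, 125 and 124 FPKM for Phb (limma adjusted p = 0.206) and at 54.2, 54.3 and 52.8 against 61.4, 62.5 and 60.5 FPKM for Phb2 (limma adjusted p = 0.0571). Under median-of-ratios scaling and under voom 2 of the 5 were higher, beside 2255 and 2351 of all 12944 genes tested. Under scaling without mtDNA-encoded genes 3 of the 5 were higher, beside 2647 of all 12944.

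**Figure D4:**
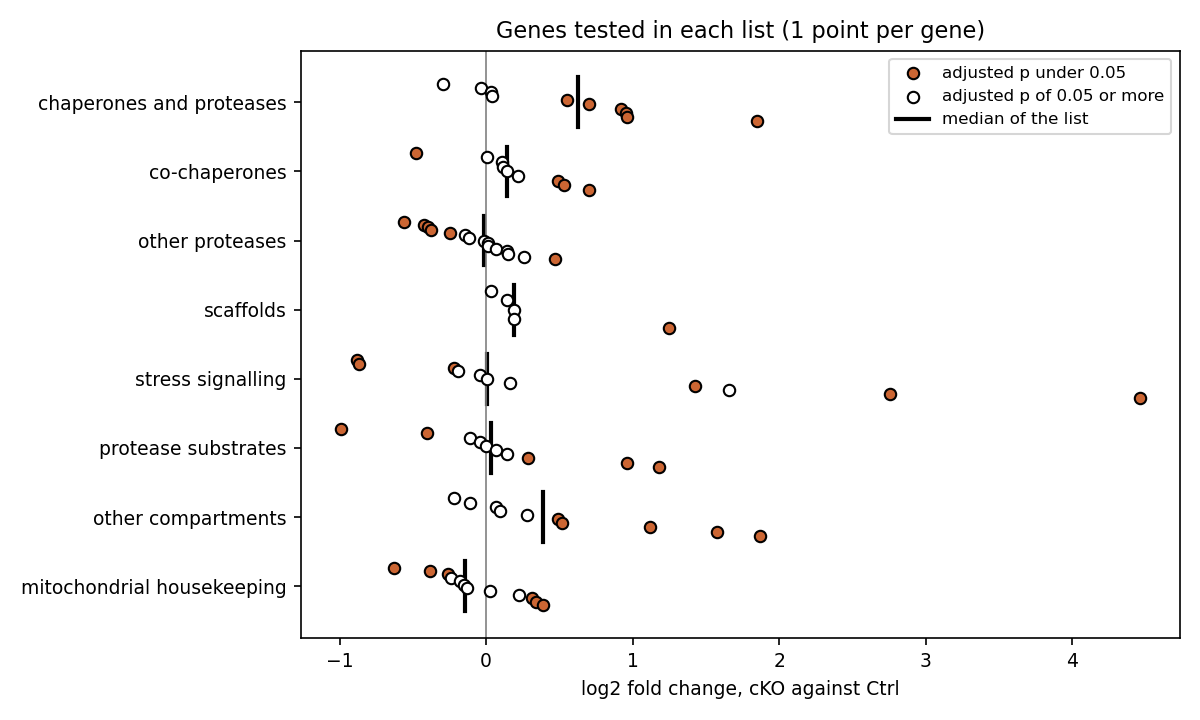
Log2 fold change of cKO against Ctrl (horizontal axis) for every gene tested in the 8 lists, 1 point per gene, filled where the limma adjusted p was under 0.05, with a bar at each list's median. The 10 chaperones and proteases have the highest median, 0.63, and the other proteases and the protease substrates have medians of -0.014 and 0.035.

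Of the 11 genes tied to UPRmt signalling, 3 were called higher and 3 lower (median log2 fold change 0.0062), where 16.3% and 17.0% of all genes tested were called. Atf5, a transcription factor linked to mitochondrial stress, was at 32.3, 26.5 and 32.8 FPKM in Ctrl hearts and at 231, 175 and 232 FPKM in cKO hearts (log2 fold change 2.76, SE 0.140, limma adjusted p = 0.000165). Atf4, the central factor of the integrated stress response, was at 37.9, 41.8 and 39.3 FPKM in Ctrl hearts and at 66.2, 153 and 125 FPKM in cKO hearts (log2 fold change 1.43, limma adjusted p = 0.00998). These factors did not rank the cKO hearts alike, since replicate 2 had the highest Atf4 and the lowest Atf5. Esr1 rose from 0.729 ± 0.253 to 38.7 ± 16.2 FPKM, but MerCreMer carries the ligand-binding domain of the mouse estrogen receptor, so reads of the transgene and of Esr1 cannot be told apart. Esr1 is among the 3 higher genes of the list, so that count may rest in part on the transgene.

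The lower genes of the list were Foxo3, Dele1 and Ubl5. Dele1, which relays mitochondrial stress to the cytosol, was at 50.2, 61.9 and 52.5 FPKM in Ctrl hearts and at 25.1, 30.8 and 33.4 FPKM in cKO hearts (log2 fold change -0.86, limma adjusted p = 0.00376). Foxo3, a stress-regulated transcription factor, had a log2 fold change of -0.88 (limma adjusted p = 0.0170) and lost its call without Ctrl replicate 2 and without Ctrl replicate 3. Ubl5, a UPRmt factor known from worms, was at -0.22 (limma adjusted p = 0.0455) and lost its call when any single heart was left out. Without Ctrl replicate 2 or without Ctrl replicate 3 the count of lower genes was 1, beside 1434 and 1450 of all 12944 genes tested. Ddit3, which encodes CHOP and was picked after its values were seen, was at 7.75, 8.06 and 6.78 FPKM in Ctrl hearts and at 10.5, 71.0 and 22.3 FPKM in cKO hearts. All cKO hearts were above Ctrl, but their spread was wide and the limma adjusted p was 0.0699. Ddit3 passed the threshold without cKO replicate 1 (log2 fold change 2.27, limma adjusted p = 0.0183) and without cKO replicate 2 (0.94, 0.0487), which made 4 higher genes in the list. Over all 12944 genes tested the higher calls were 1602 and 1993 in these fits.

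Among 10 known substrates of these proteases, 3 were higher and 2 lower (median log2 fold change 0.035), beside the 16.3% and 17.0% of all genes tested, so that the share of lower genes was close to that background. Prelid1, a lipid carrier that YME1L1 degrades, was at 10.7, 9.86 and 10.1 FPKM in Ctrl hearts and at 27.7, 17.3 and 18.8 FPKM in cKO hearts (log2 fold change 0.96, limma adjusted p = 0.00638). Star, the cholesterol carrier cleared by LONP1, was low, at 0.675 ± 0.0809 FPKM in Ctrl and 3.04 ± 1.87 FPKM in cKO (log2 fold change 1.18, limma adjusted p = 0.0195). Pink1, the kinase that marks damaged mitochondria, was at 284, 287 and 277 FPKM in Ctrl hearts and at 140, 124 and 164 FPKM in cKO hearts (log2 fold change -0.99, limma adjusted p = 0.00176). Opa1, the inner membrane fusion protein cut by YME1L1 and OMA1, went from 28.0 ± 2.59 to 20.9 ± 1.43 FPKM (log2 fold change -0.40, limma adjusted p = 0.0168). Timm17a, the remaining higher gene, is an import channel subunit and lost its call in 7 of 14 alternative fits. Star and Opa1 lost theirs without Ctrl replicate 2 and without Ctrl replicate 3. Without Ctrl replicate 2 or without Ctrl replicate 3 the counts were 1 higher and 1 lower. Over all 12944 genes tested, these fits called 1432 and 1400 higher and 1434 and 1450 lower.

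Heat shock proteins and relatives outside mitochondria were examined for comparison, and 5 of 10 were higher and none lower (median log2 fold change 0.39), beside the 16.3% and 17.0% of all genes tested. Hsp90aa1, the inducible cytosolic HSP90, was at 53.0, 60.5 and 42.3 FPKM in Ctrl hearts and at 212, 200 and 161 FPKM in cKO hearts (log2 fold change 1.87, limma adjusted p = 0.000839). The size was close to the 1.85 of Lonp1. Hspa1b and Hspa1a, inducible cytosolic HSP70 genes, stayed below 10 FPKM in every heart and had log2 fold changes of 1.57 (limma adjusted p = 0.00639) and 1.12 (limma adjusted p = 0.0166). They are near-identical copies, so reads may be split between them. At such low levels log2(FPKM + 1) understates changes. As multiples of the Ctrl mean, Hspa1b was at 4.05 and Hspa1a at 3.02, beside 3.68 for Hsp90aa1. Hspa1a lost its call without filter and without Ctrl replicate 2, Ctrl replicate 3, cKO replicate 1 or cKO replicate 3 (limma adjusted p 0.0510 to 0.0584), which left 4 higher genes. Over all genes tested, 1598 of 26855 were higher without filter and 1400 to 1739 of 12944 without these hearts. Hspa8 and Tcp1, a subunit of the cytosolic chaperonin, were higher with log2 fold changes of 0.52 (limma adjusted p = 0.0135) and 0.49 (0.00322). The endoplasmic reticulum chaperones were not called, with Hspa5 at 94.5, 119 and 134 against 105, 98.5 and 117 FPKM. Neither were Lonp2, the peroxisomal LON protease (limma adjusted p = 0.457), and Htra1, the secreted relative of HTRA2 (limma adjusted p = 0.503).

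A list of 12 general mitochondrial genes that encode no chaperone or protease was set beside the members. It does not stand for mitochondrial transcripts at large. Of these, 3 were higher and 3 lower, beside the 16.3% and 17.0% of all genes tested. Their median log2 fold change was -0.14, and -0.089 without Ctrl replicate 2. Slc25a4, the adenine nucleotide carrier of heart, was lower (log2 fold change -0.63, limma adjusted p = 0.00493), as were Slc25a3, the phosphate carrier (-0.38, 0.0239), and Immt, a cristae protein (-0.26, 0.0396). The porins Vdac3 (0.39, 0.00753) and Vdac2 and the import pore Tomm40 were higher. Immt lost its call in 10 of the 14 alternative fits, Slc25a3 in 5, and Vdac2 and Tomm40 in 4 each. Cs, citrate synthase, was at 198, 246 and 237 against 195, 214 and 211 FPKM (limma adjusted p = 0.353). Leaving out single hearts brought the counts down to 1 higher (without Ctrl replicate 1, Ctrl replicate 3 or cKO replicate 1) and to 1 lower (without Ctrl replicate 2, Ctrl replicate 3, cKO replicate 1 or cKO replicate 3). Beside these counts stood 1400 to 1602 higher and 1434 to 1763 lower genes of all 12944 tested in the same fits.

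The summed markers of cardiomyocytes and endothelium were lower in cKO hearts, while the sums of other cell types overlapped. Over all genes tested, the share beside each of these counts was 16.3% higher and 17.0% lower. Of 8 cardiomyocyte markers, 6 were lower and none higher in cKO hearts. Their summed level was 19992 to 24686 FPKM in Ctrl and 11259 to 18169 FPKM in cKO hearts. Endothelial markers were lower for 4 of 5 genes, with sums of 109.9 to 131.8 FPKM in Ctrl and 73.6 to 84.9 FPKM in cKO. Fibroblast markers (2 higher and 1 lower of 6), macrophage markers (0 higher and 1 lower of 5 tested) and smooth muscle markers (1 higher and 0 lower of 3 tested) had sums that overlapped between the groups. So did the atrial markers (0 higher and 0 lower of 4). Myl7, Sln and Myl4 were each highest in Ctrl replicate 1 and next in cKO replicate 3, with Myl7 at 679 and 495 FPKM. In the other hearts Myl7 was at 18.1 to 170 FPKM. Nppa, which the paper also uses as a hypertrophy marker, was at 1062 FPKM in Ctrl replicate 1 and 1127 FPKM in cKO replicate 2. Whether single hearts held atrial tissue was not tested. None of the markers was below 0.1 FPKM in every heart. The part of these shifts in the values of the chaperones and proteases was not tested.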

How the data were processed

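Poly-A selected RNA of 6 mouse hearts was sequenced. Groups come from the sample titles, and the series calls the replicates biological. The authors' processing notes name HISAT2 2.0.5, featureCounts 1.5.0-p3 and DESeq2 1.16.1. The authors deposited FPKM per gene and heart and, as an other gene-level value, the gene length. The notes name mm9, but 98.3% of coordinates equal those of GENCODE M21 (GRCm38). Strand use and multiply aligned reads were not given in the sources used here. FPKM times gene length gave whole reads for 100% of values (tolerance 0.1 read), from which depth was taken. The library size implied by FPKM was 0.980, 0.913 and 0.972 times these reads in Ctrl and 1.06, 1.06 and 1.06 times in cKO. The deposited scaling was therefore not the plain total of reads and differed between the groups.

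Groups were compared with limma 3.58.1 (R 4.3.3) on log2(FPKM + 1), which understates changes of low genes, with an intensity trend and no covariates, two-sided, for the 12944 genes at a mean of 0.5 FPKM or more. P-values were adjusted by Benjamini-Hochberg over all genes tested, at a threshold of 0.05. Multiples are ratios of mean FPKM. Ratios within hearts used two-sided exact permutation (scipy 1.17.1). The alternatives tried were 0.1 as pseudocount, a filter at 1 FPKM or none, 2 other scalings (median-of-ratios, and without mtDNA-encoded genes), voom on recovered reads, eBayes without trend, a replicate block and leaving out each heart. The fit was tested on simulated data. Members and lists were chosen with earlier results of these data known. Named are every member, Mrps5, the genes of the ratios and the list genes past the threshold, with values for the largest changes, plus list genes picked after their values were seen. Promoter sequences are from RefSeq (GRCm38.p6).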

Additional observations from a re-analysis of the deposited data

How the results depend on the processing

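The 6 higher members stayed past the threshold in all 14 alternative fits, with limma adjusted p-values up to 0.0189 in the 8 that kept every heart and up to 0.0228 when a heart was left out, and the other 4 members stayed short of it. The sign of Clpp turned under scaling without mtDNA-encoded genes (0.052) and over hearts left out in turn (-0.066 to 0.014), and that of Trap1 over hearts left out in turn (-0.0082 to 0.086), all far from the threshold. Scaling without mtDNA-encoded genes moved the split of all calls from 2110 higher and 2205 lower to 2647 and 1623, and shifted the median of all genes tested from -0.016 to 0.047. It moved list medians to 0.71 (members), 0.069 (other proteases), 0.28 (scaffolds), 0.12 (substrates), 0.47 (other compartments) and -0.054 (mitochondrial housekeeping), and gave 2 higher other proteases and 3 higher scaffolds. Higher scaffolds were 2 without filter, under median-of-ratios scaling and under voom, beside 2255 and 2351 of all 12944 genes tested in the last 2 of these fits. Without filter, 3 other proteases and 1 housekeeping gene were lower and 1 substrate was higher. That fit called 1598 higher and 1681 lower of 26855 genes tested. Members with every cKO heart below Ctrl were 0 under median-of-ratios scaling and under scaling without mtDNA-encoded genes, alternatives added after seeing the data.

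Over hearts left out in turn the median ranged from 0.54 to 0.68 for the members, 0.081 to 0.21 for co-chaperones, -0.078 to -0.0060 for other proteases, -0.21 to -0.089 for housekeeping genes, 0.32 to 0.42 for other compartments, 0.14 to 0.20 for scaffolds, 0.012 to 0.12 for signalling and -0.049 to 0.093 for substrates. Counts ranged from 1 to 4 lower other proteases, 3 to 4 higher and 1 to 2 lower signalling genes, 3 to 4 higher co-chaperones, 4 to 5 higher genes of other compartments, 1 to 3 higher and 1 to 2 lower substrates, and 1 to 3 higher and 1 to 3 lower housekeeping genes. In the same fits 1400 to 1993 of all 12944 genes tested were higher and 1434 to 2006 lower, beside 2110 and 2205 with every heart. The replicate numbers did not pair the hearts: deviations of same-numbered hearts correlated at -0.0554, 0.175 and -0.0148. The fit with the replicate number as a block called 1874 genes higher and 1982 lower, kept 6 higher members and lowered the count of lower other proteases to 3. Of the recomputed values of the members, list counts, list medians and ratios, 525 held, 41 moved and 3 turned in sign. Members held when direction and call stayed, and medians and ratios when they stayed within their spread. Counts also held when close to the count given above, as with 4 lower other proteases in place of 5. Depth did not set a floor, since the least covered member had 394 reads.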
